A study of Mus musculus with 4 samples.

Results

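The genes described are the Notch receptors Notch1 to Notch4, the canonical ligands Dll1, Dll3, Dll4, Jag1 and Jag2, and the transcriptional target Hes1, in mouse cardiac progenitor cells with and without Isl1. They were chosen by name as the receptor and ligand genes of the pathway plus Hes1, and they make up 10 of the 20701 gene symbols measured, each with a single transcript entry. All 10 had enough counts to be tested. RNA was sequenced from E14 Tg(Nkx2-5-EmGFP) embryonic stem (ES) cells, a mouse line with a green fluorescent reporter of the cardiac gene Nkx2-5, which were differentiated and sorted for GFP at day 5. The 2 control libraries came from cells without the deletion and the 2 Isl1_KO libraries from Isl1-/- cells made with CRISPR/Cas9, and both groups carry the reporter. The extraction protocol speaks of different clones in each group. The p-values measure the spread between these libraries alone. The titles, the genotype label and the methods describe a knockout, whereas the series' design text mentions a knockdown, and the titles were followed here.

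Notch signalling works by contact between neighbouring cells. A Delta or Jagged ligand on the sending cell binds a Notch receptor on the receiving cell, which is then cut by an ADAM protease and by gamma-secretase, and the freed intracellular domain enters the nucleus, joins the DNA-binding protein Rbpj and the coactivator Maml, and switches on genes such as Hes1 and the Hey family. In the developing heart the pathway is known for its work in the outflow tract, the valves, the trabeculae and the vessels, and mutations in JAG1 cause Alagille syndrome, in which the right side of the heart is often malformed.

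The libraries held 8821517 and 9147425 counts in control, compared with 13186109 and 11388333 in Isl1_KO, over 1 transcript entry per gene. Isl1, a LIM-homeodomain factor of the second heart field, had 309 and 326 counts in control, compared with 17 and 24 in Isl1_KO, and was 21.0-fold lower (log2 fold change -4.39, SE 0.21, n = 2 and 2, edgeR's quasi-likelihood test, Benjamini-Hochberg adjusted p = 0.00277). The cardiac markers were present in every library, yet 8 of 9 had negative log2 fold changes. By edgeR 7 of 9 were called lower in Isl1_KO, beside 1.94% of all tested genes. These numbers include Isl1, the deleted gene. Also among the 7 was Nkx2-5, the gene whose reporter was used for the sort. It had 186 and 181 counts in control, compared with 62 and 50 in Isl1_KO. The control libraries differed from each other by little more than counting error (chi-square over its degrees of freedom 1.13), the Isl1_KO libraries by far more (18.9). The biological coefficient of variation came to 1.29% in the former, 16.3% in the latter and 11.1% for both groups jointly. Whether the control libraries came from different clones was not tested. In bulk RNA of this kind, fewer cells of a type and less RNA per cell cannot be told apart.

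Jag1 was the only member past the threshold, and it was lower in Isl1_KO. Its share of 1 of 10 members called stands beside 2.45% of the 12715 genes tested that were called in either direction and 1.94% that were called lower. The groups did not overlap in 5 members, 4 lower and 1 higher in Isl1_KO, but 58.1% of all tested genes also had groups that did not overlap, so the count of 5 is near the background. The median log2 fold change was -0.0071 over the 10 members and -0.0027 over all tested genes. It was 0.013 over the 4 receptors and -0.52 over the 5 ligands.

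**Figure D1:**
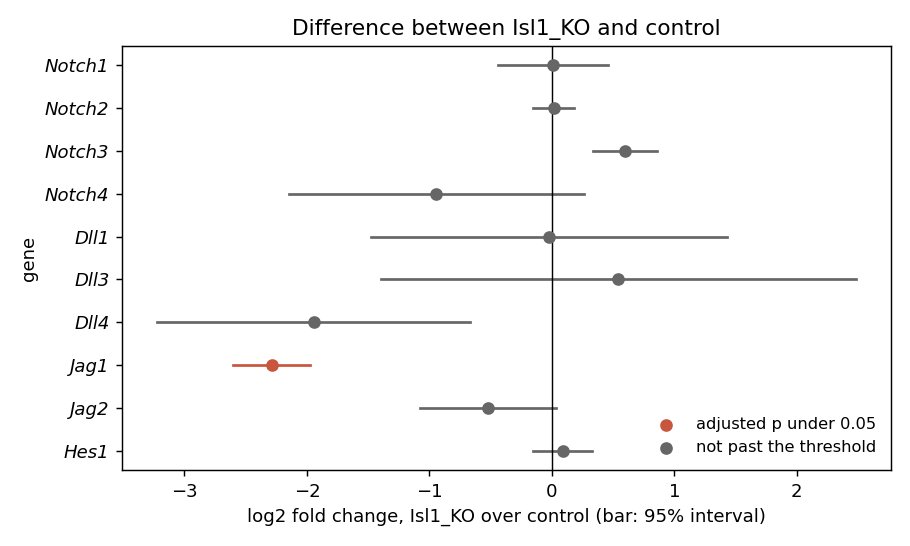
The log2 fold change of Isl1_KO over control is plotted for each gene with its 95% interval, from edgeR with 2 libraries a group. Jag1 at -2.29 is the only point past the adjusted threshold, the intervals of Notch3 and Dll4 lie away from 0 without passing it, and the intervals of Dll1 and Dll3 are the widest.

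Because Jag1 was the member past the threshold, a short stretch before its start is shown. It lies at chr2:136942287-136942316 on the minus strand of NCBIM37 (mm9), 60 to 31 bases before the RefSeq start, and GENCODE vM1 places it inside the first exon of a longer model of the gene. Capitals mark TAAT, the core letters bound by many homeodomain proteins.
Jag1: aaggctgcgcaTAATcaTAATAATaaaaga
The Jag1 window, which runs from 250 bases before the start through the first 10 bases after it, held TAAT 3 times, at -49, -43 and -40 on the strand of the gene, and the last pair share a base. Searched on both strands, 5 of the 10 member windows held TAAT at least once, beside 55.6% of 32851 RefSeq windows of the same length, and 17.8% of all windows held it 3 times or more. A match of letters is a description of the window and not evidence of binding.

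Among the receptors, Notch3 had the highest level per length and was the only one whose libraries were all higher in Isl1_KO. Notch3 is the receptor best known from smooth muscle cells and pericytes. It had 1874 and 2026 counts in control, compared with 3888 and 4122 in Isl1_KO, which is 26.9 and 28.0 against 37.8 and 45.2 CPM per kilobase (CPM, counts scaled to a common library size, divided by the transcript length). The groups did not overlap, and the lower Isl1_KO library stood well clear of both control libraries. The difference was 1.51-fold (log2 fold change 0.60, SE 0.10, 95% interval 0.33 to 0.86), but it missed the threshold after adjustment (edgeR's quasi-likelihood test, Benjamini-Hochberg adjusted p = 0.0618). With the Wald test of DESeq2 the same gene passed (log2 fold change 0.60, adjusted p = 0.0012). DESeq2 called 2 members, Notch3 and Jag1, beside 4.43% of all genes it tested. Beside Notch3, the summed level of smooth muscle markers was 1149 and 1153 in control and 1052 and 373 CPM per kilobase in Isl1_KO. Of these 5 markers 0 were called by edgeR or DESeq2, and 0 had an unadjusted p under 0.05. Their part in the Notch3 values was not tested.

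The bases around the Notch3 start, from 250 before it to the first 10 after it, are shown because this is the member whose call turns on the test. They lie at chr17:32303826-32304085 on the minus strand of NCBIM37 (mm9), next to the end that GENCODE vM1 gives the gene, which spans 32257765 to 32303825 on chromosome 17, and capitals mark the GC box GGGCGG on either strand.
Notch3: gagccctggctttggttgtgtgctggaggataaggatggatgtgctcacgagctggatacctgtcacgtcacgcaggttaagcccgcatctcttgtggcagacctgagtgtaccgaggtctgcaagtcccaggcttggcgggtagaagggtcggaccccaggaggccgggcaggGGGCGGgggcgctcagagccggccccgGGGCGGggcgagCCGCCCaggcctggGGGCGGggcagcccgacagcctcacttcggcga
This window held 4 GC boxes and no TAAT, whereas the Jag1 window held TAAT and no GC box. A GC box was found in 6 of the 10 member windows and in 33.4% of all windows. GTGGGAA, the sequence recognised by Rbpj, was found in 0 of the 10 member windows and in 5.58% of all windows, which says only that these letters are missing from these stretches. No window of Hes1 was in the table used.

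Notch2, a broadly expressed receptor (chromosome 3, 97817461 to 97954290, plus strand), differed little between the libraries. It had 19.0 and 19.1 CPM per kilobase in control and 18.7 and 19.8 in Isl1_KO, from 1753 and 1828 against 2547 and 2395 counts. The groups overlapped, and the log2 fold change was 0.016 (SE 0.066, 95% interval -0.15 to 0.18), which leaves room for a level between 0.90 and 1.14 times that of control.

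Notch1, the receptor needed for endocardial and arterial development (chromosome 2, 26313423 to 26372183, minus strand), did not pass the test either, but its Isl1_KO libraries lay on both sides of control. The control libraries had 8.69 and 8.77 CPM per kilobase, and the Isl1_KO libraries 10.4 and 7.19. Its log2 fold change was 0.011 (SE 0.18, 95% interval -0.44 to 0.46) and turned to -0.28 when Isl1_KO replicate 1 was left out.

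Notch4 (chromosome 17, 34701213 to 34725448, plus strand) is a receptor largely restricted to endothelium. It had low counts, 24 and 46 in control, compared with 35 and 15 in Isl1_KO. On the scale of CPM the groups were only just apart, with 2.72 and 5.03 in control and 2.69 and 1.30 in Isl1_KO. A log2 fold change of -0.94 (SE 0.47, 95% interval -2.14 to 0.26) did not pass the test (edgeR's quasi-likelihood test, Benjamini-Hochberg adjusted p = 0.303). It was -1.57 without Isl1_KO replicate 1, and between -1.57 and -0.44 over the fits that left out 1 library.

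Summed over the 4 receptors, the level was 55.0 and 56.7 CPM per kilobase in control and 67.3 and 72.5 in Isl1_KO. Notch3 held 49.2% ± 0.40 (SD, n = 2) of this sum in control and 59.3% ± 4.42 (SD, n = 2) in Isl1_KO. The share of Notch2 was 34.1% ± 0.59 in control and 27.6% ± 0.28 in Isl1_KO (SD, n = 2). The sums and shares are descriptions without a test, because an exact permutation test of 2 libraries against 2 cannot give a two-sided p below 0.333.

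Jag1 had the highest level of the 5 canonical ligands in the control cells. It encodes the ligand that the second heart field and the outflow tract are known to use, and the gene spans 136907192 to 136942380 on the minus strand of chromosome 2 with no exon shared with another annotated gene. The control libraries had 555 and 556 counts and the Isl1_KO libraries 179 and 133, although the latter were sequenced more deeply. As levels these were 11.5 and 11.1 against 2.52 and 2.11 CPM per kilobase. The groups stood far apart, and the replicates of each group were close to each other. Jag1 was 4.88-fold lower in Isl1_KO (95% interval 3.93 to 6.07, log2 fold change -2.29, SE 0.12, edgeR's quasi-likelihood test, Benjamini-Hochberg adjusted p = 0.00295). By p-value it was the gene at rank 25 of all 12715, and among the 247 genes called lower its decrease had rank 105. The call rested on having both control libraries, as did those of most of the 311 genes called. In the edgeR fits without a control library the spread came from the Isl1_KO pair alone. The log2 fold change of Jag1 was -2.26 without control replicate 1 and -2.31 without control replicate 2.

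Of 10883 genes with a mean of 2 or more on the log2 CPM scale, the 3 most like Jag1 across the 4 libraries were Spon1, Nxf3 and Nkx2-5, at Euclidean distances of 0.063, 0.156 and 0.168 in centred log2 CPM. Spon1, which encodes an extracellular matrix protein, had 538 and 573 counts in control, compared with 178 and 132 in Isl1_KO, and its log2 fold change was -2.30. Nkx2-5 had a log2 fold change of -2.16 and Nxf3 of -2.33.

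Jag2, the other Jagged ligand (chromosome 12, 114146801 to 114167706, minus strand), was lower in both Isl1_KO libraries but not past the threshold. Its levels were 1.64 and 2.07 CPM per kilobase in control and 1.18 and 1.40 in Isl1_KO, from 58 and 76 against 62 and 65 counts. Its log2 fold change was -0.52 (SE 0.22, 95% interval -1.08 to 0.034, edgeR's quasi-likelihood test, Benjamini-Hochberg adjusted p = 0.234).

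Dll4, the ligand of arterial and tip endothelial cells (chromosome 2, 119151520 to 119161698, plus strand), had few counts. They were 17 and 20 in control and 10 and 3 in Isl1_KO, and the last value is at the floor of 3 counts. Both Isl1_KO libraries lay below both control libraries. This gave a log2 fold change of -1.94 (SE 0.50, 95% interval -3.22 to -0.66), which passed the study's criteria (DESeq2, a log2 change beyond 0.58 with an unadjusted p under 0.05) but not the adjusted test (edgeR's quasi-likelihood test, Benjamini-Hochberg adjusted p = 0.117). By those criteria 3 members were called, Notch3, Dll4 and Jag1, beside 5.89% of all genes. Dll4 was -2.93 without Isl1_KO replicate 1 and -1.41 without Isl1_KO replicate 2.

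Other endothelial genes gave mixed values beside Dll4 and Notch4, and 0 of 12 endothelial markers were called by edgeR, 6 of them with an unadjusted p under 0.05, a range that held 23.3% of all tested genes. DESeq2 called 3 of them, Tek and Emcn lower and Flt1 higher in Isl1_KO. Their summed level was 124 and 123 CPM per kilobase in control and 128 in each Isl1_KO library. Kdr had a log2 fold change of 0.11 and Pecam1 of 0.26, whereas those of Tek, Tie1 and Sox18 were -1.18, -1.02 and -1.72. The part of endothelial cells in the Dll4 and Notch4 values was not tested.

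Dll1 and Dll3, ligands best known from the presomitic mesoderm and the nervous system, split the Isl1_KO pair. Dll1 lies at 15504318 to 15513836 on the minus strand of chromosome 17 and Dll3 at 29076673 to 29087257 on the minus strand of chromosome 7. Dll1 had 16 and 18 counts in control, compared with 12 and 33 in Isl1_KO. Dll3, which acts mainly inside the cell as an inhibitor, had 9 and 14 counts in control, compared with 9 and 36 in Isl1_KO. In both genes the Isl1_KO libraries lay on either side of control. The log2 fold change was -0.025 (SE 0.57, 95% interval -1.48 to 1.43) for Dll1 and 0.54 (SE 0.76, 95% interval -1.40 to 2.48) for Dll3, and changes of several-fold lay within both intervals. Dll1 was 0.59 and Dll3 1.28 on the log2 scale without Isl1_KO replicate 1, and -1.03 and -0.88 without Isl1_KO replicate 2. Markers of paraxial mesoderm summed to 1.95 and 2.33 CPM per kilobase in control and 2.10 and 2.89 in Isl1_KO, those of neural cells to 55.6 and 55.8 against 56.5 and 36.5, and those of pluripotent cells to 13.8 and 14.5 against 12.0 and 24.6. With edgeR, 0 of 2, 0 of 4 and 0 of 3 tested markers of these lists were called, of which 0, 1 and 0 had an unadjusted p under 0.05, and DESeq2 called 0 as well. Their part in the Dll1 and Dll3 values was not tested.

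**Figure D2:**
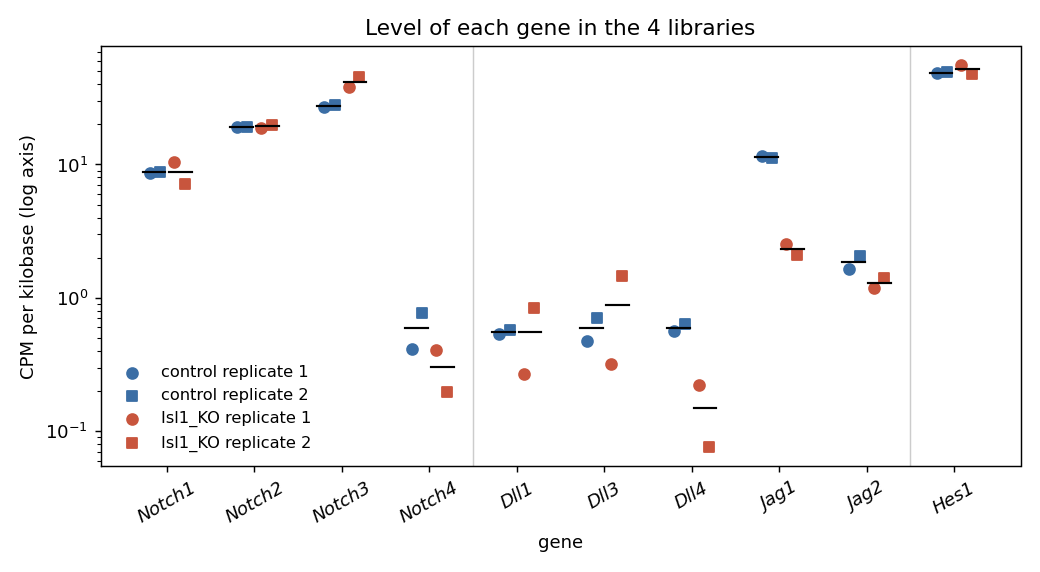
The level of each gene in every library is shown in CPM per kilobase on a log axis, with circles for replicate 1, squares for replicate 2 and black bars for the group means. Jag1 falls from 11.5 and 11.1 in control to 2.52 and 2.11 in Isl1_KO, and the Isl1_KO pair is widest apart in Dll3, Dll4 and Dll1.

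The pool of the 5 canonical ligands was smaller in Isl1_KO, and less of it was Jag1. This pool leaves out the non-canonical ligand Dlk1, which had 66.9 and 66.6 CPM per kilobase in control and 25.3 and 5.20 in Isl1_KO. The pool includes Dll3, which acts mainly inside the cell as an inhibitor, so it does not measure activating ligand alone. Summed over the 5 ligands, the level was 14.7 and 15.1 CPM per kilobase in control and 4.52 and 5.88 in Isl1_KO. Jag1 held 75.9% ± 3.28 (SD, n = 2) of this sum in control and 45.8% ± 14.0 (SD, n = 2) in Isl1_KO, where the libraries had 55.7% and 35.9%. The next largest share was that of Jag2 with 26.2% in Isl1_KO replicate 1, where Dll3 had 7.12%, and that of Dll3 with 24.7% in replicate 2, where Jag2 had 23.8%. The summed receptor level was 3.73 and 3.75 times the summed ligand level in control and 14.9 and 12.3 times in Isl1_KO, and the groups of this ratio did not overlap.

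**Figure D3:**
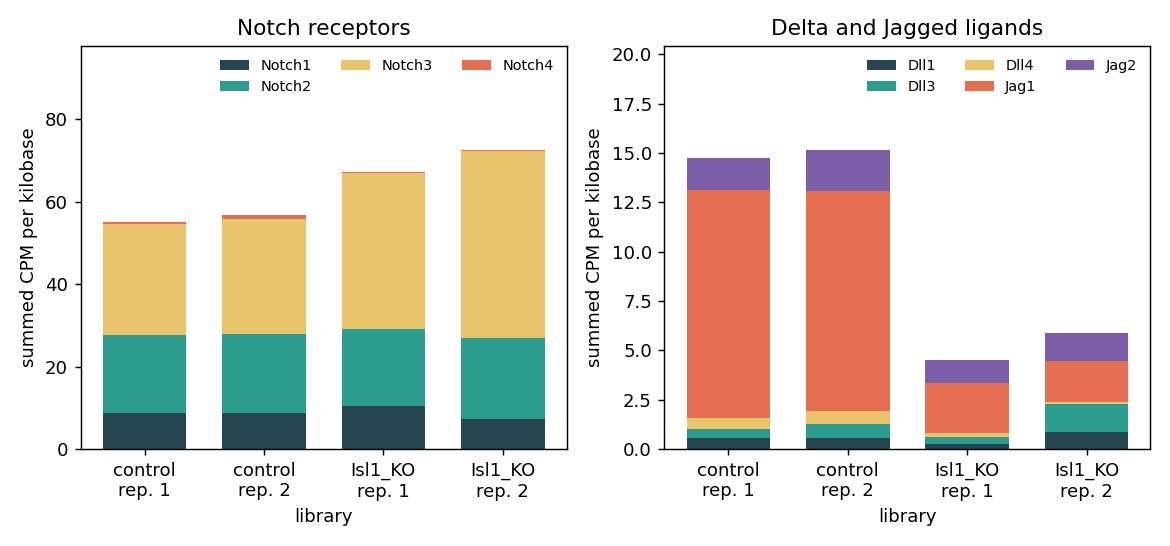
Bars give the summed level of the receptors and of the ligands in each library, in CPM per kilobase from 0, divided by gene. The ligand bars stand at 14.7 and 15.1 in control and 4.52 and 5.88 in Isl1_KO with most of the difference in Jag1, while the receptor bars are at 55.0 and 56.7 in control and 67.3 and 72.5 in Isl1_KO.

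Hes1, a repressor of the basic helix-loop-helix class and the classic target of the pathway (chromosome 16, 30064470 to 30067882, plus strand), had the highest level per length of the members in both groups. It had 613 and 653 counts in control, compared with 1046 and 800 in Isl1_KO, or 48.2 and 49.4 against 55.6 and 48.0 CPM per kilobase. The groups overlapped. Isl1_KO over control gave a log2 fold change of 0.088 (SE 0.095, 95% interval -0.15 to 0.33), an interval from 0.90 to 1.26 times the control level, and the test did not pass (edgeR's quasi-likelihood test, Benjamini-Hochberg adjusted p = 0.623).

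In control the order of the mean levels per length was Hes1, Notch3, Notch2, Jag1, Notch1 and Jag2, each clear of the next, followed by Dll4, Dll3, Notch4 and Dll1, whose neighbours could not be separated. In Isl1_KO Jag1 stood below Notch1, and from Jag2 downward each gene overlapped the next, in the order Jag2, Dll3, Dll1, Notch4 and Dll4.

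The rest of the pathway was followed with 62 further genes in 7 lists, of which 53 were tested. There, 1 gene was higher and 1 lower in Isl1_KO, against the background of 2.45% called, and the median log2 fold change was -0.096. At an unadjusted p under 0.05 there were 19 of 53, beside 23.3% of all tested genes, and DESeq2 called 7, beside 4.43%, among them Snw1, Tle4, Maml3, Numb, Gata2 and Myc. Both genes called by edgeR act in the nucleus. Snw1 (SKIP), a spliceosome and Notch cofactor, had 1332 and 1286 counts in control, compared with 2738 and 2655 in Isl1_KO and rose by 0.59 on the log2 scale (SE 0.080, edgeR's quasi-likelihood test, Benjamini-Hochberg adjusted p = 0.0359). Tle4, a Groucho corepressor that Hes proteins recruit, went from 581 and 579 counts in control to 540 and 507 in Isl1_KO, whose libraries were deeper, and fell by 0.60 on the log2 scale (SE 0.084, edgeR's quasi-likelihood test, Benjamini-Hochberg adjusted p = 0.0396). Neither call held when either control library was left out, and most of the 311 genes called in all lost their call there too.

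The other 12 tested genes of the nuclear complex did not pass, among them Rbpj with a log2 fold change of -0.27 (SE 0.17) and Maml1 with 0.089 (SE 0.083). Of the 8 tested genes of receptor cleavage 0 were called by edgeR, 4 had an unadjusted p under 0.05, and DESeq2 called 1. Adam10, the protease of the first cut, had a log2 fold change of -0.31 (SE 0.078, adjusted p = 0.110 with edgeR). Of ligand endocytosis, 0 of 5 tested genes were called by either tool, with 1 at an unadjusted p under 0.05, and the ubiquitin ligase Mib1, which ligands need to be active, had a log2 fold change of -0.020 (SE 0.096).

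Of the genes that attach sugars to Notch, 0 of 4 tested were called by either tool or had an unadjusted p under 0.05, with Lfng at 0.21 (SE 0.30), and Mfng had 1 to 8 counts and was not tested. Of receptor turnover, 0 of 9 were called by edgeR, 3 had an unadjusted p under 0.05, and DESeq2 called 1, Numb. This gene, an inhibitor of Notch, had a log2 fold change of 0.51 (SE 0.099, adjusted p = 0.0726 with edgeR). The non-canonical ligand Dlk1 had 2756 and 2844 counts in control, compared with 1538 and 280 in Isl1_KO. Its groups did not overlap, but the Isl1_KO libraries were far apart, and a log2 fold change of -2.12 (SE 0.67) did not pass (adjusted p = 0.157 with edgeR). Of the 2 tested genes of its list 0 were called by either tool, and 1 had an unadjusted p under 0.05.

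Among targets other than Hes1, 0 of 11 tested genes were called by edgeR, 3 had an unadjusted p under 0.05, and DESeq2 called 2, Gata2 and Myc, which have many inputs besides Notch. Gata2 is also a blood gene. Of 8 blood markers tested 6 had positive log2 fold changes and 6 had an unadjusted p under 0.05. With edgeR 1 was called (Runx1), beside 2.45% of all tested genes, and with DESeq2 2 (Runx1 and Tal1), beside 4.43%. The summed levels of the blood markers were 666 and 681 CPM per kilobase in control and 380 and 132 in Isl1_KO. In control the largest levels in this sum were those of Hbb-bh1 and Hba-x, the markers with negative log2 fold changes. Hbb-bh1 had 470 and 484 in control and 264 and 69.4 in Isl1_KO. Hba-x had 165 and 164 in control and 68.2 and 6.12 in Isl1_KO. The part of the blood markers in the Gata2 value was not tested. Hey1 had 143 and 147 counts in control, compared with 174 and 166 in Isl1_KO, a log2 fold change of -0.22 (SE 0.13, adjusted p = 0.369 with edgeR). Hey2, a regulator of ventricular muscle, had -0.21 (SE 0.10) and Nrarp, a feedback inhibitor, 0.34 (SE 0.29), neither past the threshold. Heyl had 23 and 22 counts in control, compared with 24 and 9 in Isl1_KO with a log2 fold change of -0.91 (SE 0.45), and Hes5 and Hes7 had at most 1 and 6 counts and were not tested.

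**Figure D4:**
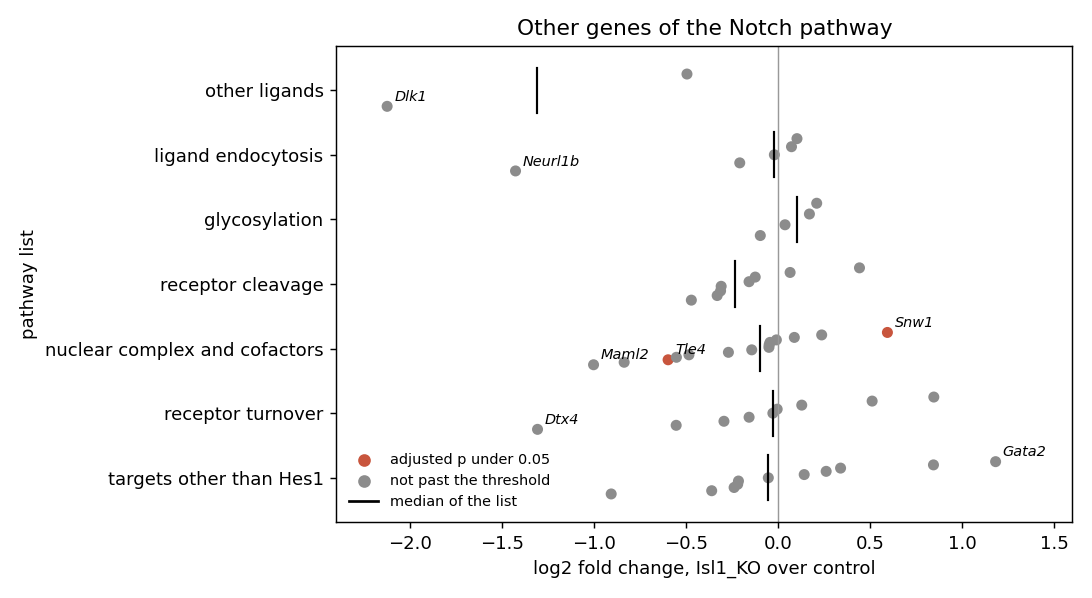
Each point is a tested gene of a pathway list, placed by its log2 fold change of Isl1_KO over control, with a black bar at the median of the list. Only Snw1 at 0.59 and Tle4 at -0.60 are past the adjusted threshold, and Dlk1 at -2.12 is the farthest from 0.

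The counting ignored strand, so reads of genes that overlap on opposite strands cannot be told apart. Exons of Notch1, Notch3, Dll1 and Dll4 overlap annotated non-coding RNAs on the other strand, and an exon of Snw1 overlaps that of the protein-coding 1810035L17Rik. The values of these genes are less certain for it. Jag1, Jag2, Notch2, Notch4, Dll3 and Hes1 had no such overlap in GENCODE vM1.

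The values of Jag1 and Notch3 were compared across 14 alternative settings. Jag1 stayed between -2.42 and -2.17 on the log2 scale and was past its threshold in 12 of them. Notch3 stayed between 0.46 and 0.72 and was past it in 8. Both counts include each fit that left out an Isl1_KO library, and the spread of those fits came from the control pair alone. They also include the same DESeq2 fit under its adjusted p and again under the study's criteria.

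**Figure D5:**
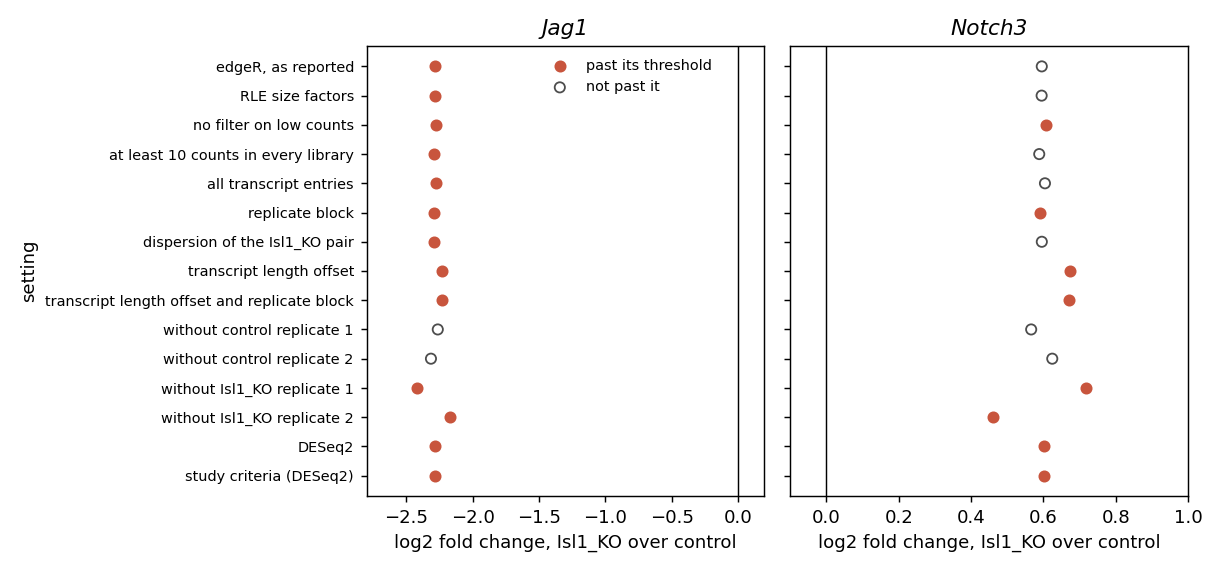
The log2 fold change of Jag1 (left) and Notch3 (right) is shown for the reported test and each alternative, filled where it was past its threshold and open where it was not. Jag1 lies between -2.42 and -2.17 and Notch3 between 0.46 and 0.72, on one side of 0 throughout.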

How the data were processed

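Per the labels and the study's methods, GFP-positive cells were sorted, poly(A) RNA was made into stranded libraries, and the authors mapped reads to mm9 with STAR and used HOMER to count the reads in exons of every RefSeq transcript without regard to strand. The versions of STAR, DESeq2 and edgeR used for this are not given in the sources used here. The counts deposited are whole numbers of reads per transcript. From them the authors computed the deposited RPKM with edgeR, which served only as an alternative unit for the level shares. The authors' deposited log2 fold changes, their p-values, the score (Wald statistic) and the signal column (mean normalized count) belong to their own comparison and were not used.

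Of 31507 transcript entries, 1 was kept for each of the 20701 symbols, that with the most counts over the libraries. A quasi-likelihood test in edgeR 4.0.16 (R 4.3.3, TMM, filterByExpr, two-sided, no covariate) was fitted to the 12715 genes that passed the filter, with Benjamini-Hochberg adjustment over all of them and a threshold of 0.05. DESeq2 1.42.0 was an alternative, also with the study's criteria of a log2 change beyond 0.58 and an unadjusted p under 0.05. Levels per length used effective library sizes and the transcript lengths of the table. Tables and plots were made with Python 3.11.15, pandas 2.3.3, numpy 2.4.6 and matplotlib 3.10.9. On simulated data, the edgeR test of Isl1_KO against control with 12715 genes recovered 71 of 100 genes changed 2-fold and 99 of 100 changed 4-fold, with 6 false calls. The simulation gave both groups the same spread, whereas the biological coefficient of variation was 1.29% in control and 16.3% in Isl1_KO. Its figures therefore do not carry over to these libraries.

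A floor of 3 counts was worth 0.231 to 0.341 CPM, and describes counting error alone because molecules carried no identifiers. Of the members, 4 (Notch4, Dll1, Dll3 and Dll4) had fewer than 150 counts over the 4 libraries. Gene positions are from GENCODE vM1 on NCBIM37, the assembly behind mm9. Promoter windows came from RefSeq (GRCm38.p6), for 9 of 10 members, and those printed were found by exact match in NCBIM37.

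The members, the pathway lists, the marker lists and the settings were chosen with earlier results of these data known. The genes named were all members, Isl1, each pathway gene past the threshold, a fixed set of 15 other pathway genes (1 of which is not reported here), and the 3 genes most like the member with the smallest p. Markers were named where a result needed them. Tek, Tie1, Sox18, Emcn, Flt1, Hbb-bh1, Hba-x, Maml3, Gata2, Myc and the positions in the closing section were chosen after their values were seen. Of the marker lists, cardiac genes had 7 of 9 called lower by edgeR, with Isl1 counted among them. Blood genes had 1 of 8 called higher (Runx1). Endothelial, paraxial, neural, smooth muscle, endoderm and pluripotency genes had 0 called of 12, 2, 4, 5, 5 and 3 tested. For endoderm, 0 were also called with DESeq2 or had an unadjusted p under 0.05.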

Additional observations from a re-analysis of the deposited data

How the results depend on the processing

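Over the 14 alternatives and 10 members, 113 of 138 log2 fold changes kept their direction and their side of the threshold. With 311 genes called in all, 1 member and 2 pathway genes as reported, dropping the low-count filter gave 492 genes, 2 members and 5 pathway genes, DESeq2 602, 2 and 7, and the study's criteria 993, 3 and 8. The transcript length offset gave 2 members. Notch3 was the added member in each of these, with Dll4 under the study's criteria. The deviations of same-numbered libraries had a correlation of 0.017 over 10576 genes. This cannot decide whether the replicate numbers pair the samples, because the control libraries differed by little more than counting error. A fit with the replicate number as a block gave 454 genes, 2 members and 5 pathway genes and put Notch1 at -0.012, and the block with the length offset gave 492, 2 and 6, of which only Snw1 was shared with the 2 reported, so Tle4 lost its call. The cause of these moves was not tested. Leaving out 1 library gave 8 to 6337 genes, 0 to 6 members and 0 to 30 pathway genes, since the spread then rests on the pair of the other group. For that reason the calls of the fits that left out 1 library are not taken as support for any single member. Over these fits Notch1 ranged from -0.28 to 0.25, Notch2 from -0.027 to 0.059, Dll1 from -1.03 to 0.59 (0.041 without control replicate 2), Dll3 from -0.88 to 1.28, Dll4 from -2.93 to -1.41, Notch4 from -1.57 to -0.44 and Hes1 from -0.023 to 0.19. Dll3 and Dll4 could not be fitted with at least 10 counts required in every library. Shares from deposited RPKM moved by less than the spread between replicates. The 4 members with few counts had the largest standard errors, and the Isl1_KO libraries were farthest apart in them.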

Other observations

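Snw1 and Numb, with log2 fold changes of 0.59 and 0.51, both lie on chromosome 12, at 88790886 to 88813249 and at 85134984 to 85262884. Their neighbours may be the same genes in part, which was not counted, so the medians below are not separate observations. The 40 tested genes nearest to each had a median log2 fold change of 0.35 around Snw1 and of 0.41 around Numb. Only 0.942% of placed genes had a higher neighbour median than Snw1. The same median was -0.058 around Jag1, 0.057 around Notch3 and -0.13 around Jag2, which is also on chromosome 12. These genes were looked up by position after their values had been seen.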
